A study of Mus musculus with 8 samples.

Results

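Messenger RNA of 33 genes that control or respond to hypoxia-inducible factor 1 (HIF-1) was examined in mouse neutrophils that had entered air pouches injected with lipopolysaccharide (LPS). The list holds 8 regulators of the factor and 25 hypoxia targets. A gene was taken where a probe set of the array carried its symbol alone, and the brightest such probe set was used. In this way 31 of the 33 genes were found, of 22180 genes named in the whole table. Bnip3l and Ankrd37 sit on probe sets shared with a second symbol and were left out. Ero1l is now named Ero1a.

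Neutrophils of 3 genotypes were compared on Affymetrix Mouse Gene 2.0 ST arrays, all after LPS in the air pouch. The Arf6 conditional knockout (cKO, flox+/+Cre+/+) had 3 arrays, the flox control (flox+/+Cre-/-, with the floxed Arf6 allele but no Cre) had 3 arrays and the Cre control (flox-/-Cre+/+, Cre without the floxed allele) had 2 arrays. Each array held a pool of cells from 5 mice, purified by negative selection. The sources used here do not give the promoter that drives Cre or the age of the mice. Groups follow the sample titles and the genotype labels, because in each sample the source field gives a different genotype. The level of Arf6 was used to check that choice. By its brighter probe set, Arf6 read 6.06 to 6.49 (log2) in the 3 cKO arrays and 7.68 to 8.20 in the 5 control arrays. Its difference from the mean of both control groups was -1.67 (standard error, SE, 0.15, adjusted p = 0.0122 by limma), in the direction of the labels. A dimmer Arf6 probe set overlapped, at 6.13 to 6.49 in the cKO and 6.20 to 6.81 in the controls. Its difference was -0.15 (SE 0.15, adjusted p = 0.816 by limma).

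HIF-1 is a pair of an oxygen-labile alpha subunit, Hif1a, and a stable partner, Arnt. In oxygen, the prolyl hydroxylases Egln1, Egln2 and Egln3 mark the alpha subunit for capture by the ubiquitin ligase subunit Vhl and for destruction, and the asparaginyl hydroxylase Hif1an blocks its coactivators. When oxygen falls, or when LPS signalling raises Hif1a, the pair binds short hypoxia response elements and turns on genes of glycolysis, vessel growth, mitophagy and further adaptations. Neutrophils rely on glycolysis and use HIF-1 to survive and act at inflamed, oxygen-poor sites. Much of this control acts on the protein, which arrays of RNA do not measure.

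The core of the hypoxia response element was searched in the 250 bases before the annotated start of each gene, to show which members carry it close to the start. The letters searched were ACGTG and GCGTG on both strands. On opposite strands the first overlaps itself in CACGTG, a motif that other basic helix-loop-helix factors bind too. Sequences came from RefSeq (build GRCm38.p6), where 27 of the 31 genes had a window, and the window nearest the 5′ end of the gene was used. ACGTG was present in 14 of the 27 windows (51.9%), against 20.9% of 10309 windows of all genes tested on the arrays and 16.5% of 27025 windows in the whole table. Either core was present in 20 of the 27 (74.1%), against 52.7% of the windows of genes tested. Most members are listed as hypoxia targets, so these shares describe the list and not these arrays. The 27 windows include those of Adm, P4ha2 and Bhlhe41, which were too dim to test on the arrays. A match is a description of letters and not a bound site. The windows below are those of 9 members described in full, with and without a core, and capitals mark every ACGTG or GCGTG on either strand (as CACGT or CACGC on the minus strand of the window). All run 5′ to 3′ on the strand of the gene.

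Egln2 (chr7:27166803-27167052, minus strand) and Arnt (chr3:95434140-95434389, plus strand) are the 2 members whose cKO arrays lay apart from all 5 control arrays. Their windows held 4 cores and 1 core.
Egln2: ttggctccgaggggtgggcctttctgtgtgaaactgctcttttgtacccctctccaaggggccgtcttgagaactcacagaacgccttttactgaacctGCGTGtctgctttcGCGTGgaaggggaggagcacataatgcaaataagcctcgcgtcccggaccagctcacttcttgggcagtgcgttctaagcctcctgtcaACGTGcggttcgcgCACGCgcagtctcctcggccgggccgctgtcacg
Arnt: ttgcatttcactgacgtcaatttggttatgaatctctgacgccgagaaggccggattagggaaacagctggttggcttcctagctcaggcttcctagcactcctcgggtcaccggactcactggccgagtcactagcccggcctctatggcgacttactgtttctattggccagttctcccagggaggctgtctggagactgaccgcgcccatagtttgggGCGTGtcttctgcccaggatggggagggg

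Fam162a (chr16:36071562-36071811, minus strand), Bnip3 (chr7:138909507-138909756, minus strand), Egln3 (chr12:54203875-54204124, minus strand) and Ddit4 (chr10:59951771-59952020, minus strand) are hypoxia-induced genes that read low in the Cre control. Fam162a held 6 cores, Bnip3 5, Ddit4 2 and Egln3 1.
Fam162a: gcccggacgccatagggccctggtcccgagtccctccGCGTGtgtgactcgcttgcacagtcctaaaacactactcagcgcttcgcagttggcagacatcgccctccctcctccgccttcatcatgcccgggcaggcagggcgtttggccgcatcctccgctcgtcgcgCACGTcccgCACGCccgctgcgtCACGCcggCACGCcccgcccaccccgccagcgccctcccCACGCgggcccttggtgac
Bnip3: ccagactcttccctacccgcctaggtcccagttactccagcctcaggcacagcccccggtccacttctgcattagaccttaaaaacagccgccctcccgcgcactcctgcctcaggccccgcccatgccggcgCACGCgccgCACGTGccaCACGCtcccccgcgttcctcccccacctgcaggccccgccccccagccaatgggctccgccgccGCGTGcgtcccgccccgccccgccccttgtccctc
Ddit4: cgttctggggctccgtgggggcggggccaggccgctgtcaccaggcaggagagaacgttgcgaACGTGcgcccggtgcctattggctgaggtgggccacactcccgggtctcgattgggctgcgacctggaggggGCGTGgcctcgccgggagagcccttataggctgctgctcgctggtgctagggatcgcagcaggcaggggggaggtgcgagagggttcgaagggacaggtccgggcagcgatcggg
Egln3: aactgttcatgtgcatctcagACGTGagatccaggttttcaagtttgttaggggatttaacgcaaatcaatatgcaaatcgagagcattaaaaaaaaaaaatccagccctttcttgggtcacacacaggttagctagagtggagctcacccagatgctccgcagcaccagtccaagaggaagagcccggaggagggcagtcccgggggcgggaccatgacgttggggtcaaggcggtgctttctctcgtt

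Tgm1 (chr14:55713493-55713742, minus strand) was the single member past the threshold in any comparison, and Hilpda (chr6:29272238-29272487, plus strand) and Mxi1 (chr19:53310256-53310505, plus strand) were among the members with the larger differences. These 3 windows held neither core, nor did those of Vegfa, Vhl, Hif1an and Mif. Tgm1 (-1.26), Mxi1 (-0.71) and Hilpda (-0.69) read low in the Cre control too (log2, Cre control minus flox control).
Tgm1: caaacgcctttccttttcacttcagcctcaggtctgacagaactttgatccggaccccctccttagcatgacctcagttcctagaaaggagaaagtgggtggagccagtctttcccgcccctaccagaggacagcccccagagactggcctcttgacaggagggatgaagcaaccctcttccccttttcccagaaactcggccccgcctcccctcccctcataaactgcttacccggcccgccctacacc
Hilpda: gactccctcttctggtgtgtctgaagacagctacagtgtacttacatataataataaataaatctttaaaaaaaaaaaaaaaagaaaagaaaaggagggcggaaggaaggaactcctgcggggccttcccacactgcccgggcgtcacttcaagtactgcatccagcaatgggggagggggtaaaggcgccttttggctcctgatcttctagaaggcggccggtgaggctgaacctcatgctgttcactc
Mxi1: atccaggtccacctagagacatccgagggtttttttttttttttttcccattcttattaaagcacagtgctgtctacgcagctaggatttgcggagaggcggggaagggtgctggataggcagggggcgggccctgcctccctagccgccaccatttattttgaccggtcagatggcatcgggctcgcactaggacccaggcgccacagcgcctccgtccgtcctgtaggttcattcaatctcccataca

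The arrays were alike in scale, with medians of 5.41 to 5.48 and correlations across probe sets of 0.978 to 0.993, genes not being independent replicates. Of the 31 members, 28 exceeded the median of the whole table (5.45) in at least 2 arrays and were tested. Adm, P4ha2 and Bhlhe41 did not and were left out of the tests. Among markers of neutrophils, 12 of 12 passed this filter, with Csf3r at 13.36, Cxcr2 at 13.27 and Ly6g at 10.96 on average. Flox control replicate 1 stood apart with Xist at 5.46, against 7.84 to 10.21 in the other arrays. The cKO replicate 1 stood apart with the Y-linked gene Eif2s3y at 4.08, against 8.66 to 10.04 in the others. Counts of members without these 2 pools are given in the last section, with single values that reversed.

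The first question was how the cKO differed from the mean of both control groups. No member passed the threshold of limma (adjusted p under 0.05 over 14002 probe sets), where 0.00714% of all probe sets did, and the smallest adjusted p among members was 0.283. At an unadjusted p under 0.05, 6 of the 28 members (21.4%) stood out, against 9.52% of all probe sets (5.26% higher, 4.26% lower). Arnt, Vegfa, Kdm3a, Hilpda and Tgm1 read higher in the cKO than the mean of both controls, and Egln2 lower. The cKO arrays of Vegfa, Kdm3a, Hilpda and Tgm1 overlapped those of the flox control. In all, 23 members lay above 0 and 5 below, with a median log2 difference of 0.07, where 53.4% of all probe sets lay above 0 with a median of 0.013. Against the flox control alone, 12 members lay above 0 and 16 below (median -0.04). The Cre control, which enters the mean, lay below the flox control in 24 members. In 2 members (7.14%) the cKO arrays lay beyond all 5 controls, against 4.36% of all probe sets (2.11% higher, 2.25% lower). Without the 2 pools that stood apart in sex-linked transcripts, 17 members lay above 0 and 4 had an unadjusted p under 0.05.

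Egln2, a prolyl hydroxylase of HIF alpha subunits, was the regulator with the lowest cKO reading relative to controls. It read 8.01, 7.83 and 8.08 (log2 intensity) in the cKO, 8.46, 8.46 and 8.71 in the flox control arrays and 8.66 and 8.30 in the Cre control arrays. The 3 cKO arrays lay below all 5 controls, and the control groups overlapped each other. The cKO differed from both controls by -0.54 (SE 0.12, 95% interval -0.81 to -0.26, unadjusted p = 0.00172, adjusted p = 0.296 by limma). Against the flox control alone the difference was -0.57 (SE 0.14, adjusted p = 0.348), and with the Cre control alone it was -0.50 (SE 0.15, adjusted p = 0.231), or -0.32 without Cre control replicate 1. The controls differed by -0.07 (SE 0.15), Cre minus flox. Over 17 alternatives the difference from both controls ran from -0.62 to -0.45.

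Arnt, the stable partner of the factor, leaned the other way. Its levels were 10.08, 10.26 and 9.88 in the cKO, 9.79, 9.87 and 9.83 in the flox control arrays and 9.60 and 9.79 in the Cre control arrays. Every cKO array lay above every control array, the lowest cKO pool (9.88) lying close to the highest control pool (9.87). The difference was 0.31 (SE 0.11, interval 0.05 to 0.57, adjusted p = 0.438 by limma) against both controls, 0.25 (SE 0.13) against the flox control and 0.38 (SE 0.14) against the Cre control. Without cKO replicate 2 the difference from the flox control was 0.15.

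Hif1a, the oxygen-labile subunit, read 11.62, 11.81 and 11.53 in the cKO, 11.20, 11.63 and 11.77 in the flox control arrays and 11.34 and 11.35 in the Cre control arrays. The cKO overlapped the flox control and lay above both Cre control arrays. Its difference from both controls was 0.21 (SE 0.14, interval -0.10 to 0.53, adjusted p = 0.696 by limma), so a change of up to 0.53 on the log2 scale is within the interval. A second, dimmer Hif1a probe set gave 0.14 (SE 0.16). Without flox control replicate 1 or without cKO replicate 2 the value was 0.13, and against the flox control alone it turned from 0.12 to -0.04 without flox control replicate 1. Hif1a and Egln3 lie on chromosome 12, as Arf6 does.

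Vhl and Egln3 separated the control groups rather than the cKO from both. Vhl, the subunit that captures hydroxylated HIF alpha, read 7.71, 7.50 and 7.76 in the flox control arrays, 7.11 and 7.29 in the Cre control arrays and 7.53, 7.34 and 7.43 in the cKO. The cKO lay between the control groups, above both Cre arrays and overlapping the flox arrays. Its difference was 0.01 (SE 0.11) against both controls and -0.46 (SE 0.14, adjusted p = 0.158 by limma) for the Cre control minus the flox control. Egln3, the prolyl hydroxylase that HIF itself induces, read 11.10, 10.85 and 11.21 in the flox control arrays, 10.34 and 10.37 in the Cre control arrays and 11.21, 10.50 and 11.03 in the cKO. Both Cre arrays lay below the other 6. The controls differed by -0.69 (SE 0.20, adjusted p = 0.158), and the cKO differed from the Cre control by 0.55 (SE 0.20, adjusted p = 0.285) and from the flox control by -0.14 (SE 0.18).

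The other 3 regulators gave no difference from both controls beyond their error. Epas1, the alpha subunit of HIF-2, averaged 5.61 ± 0.15 (SD, n = 3) in cKO arrays, 5.46 ± 0.07 (n = 3) in the flox arrays and 5.65 ± 0.15 (n = 2) in the Cre arrays, close to the filter on dim values. Hif1an averaged 6.22, 6.37 and 5.96, and Egln1, the main oxygen sensor of the family, 7.14, 7.19 and 6.90, in the same order. Their differences from both controls were 0.06 (SE 0.11) for Epas1, 0.055 (SE 0.16) for Hif1an and 0.10 (SE 0.13) for Egln1.

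**Figure D1:**
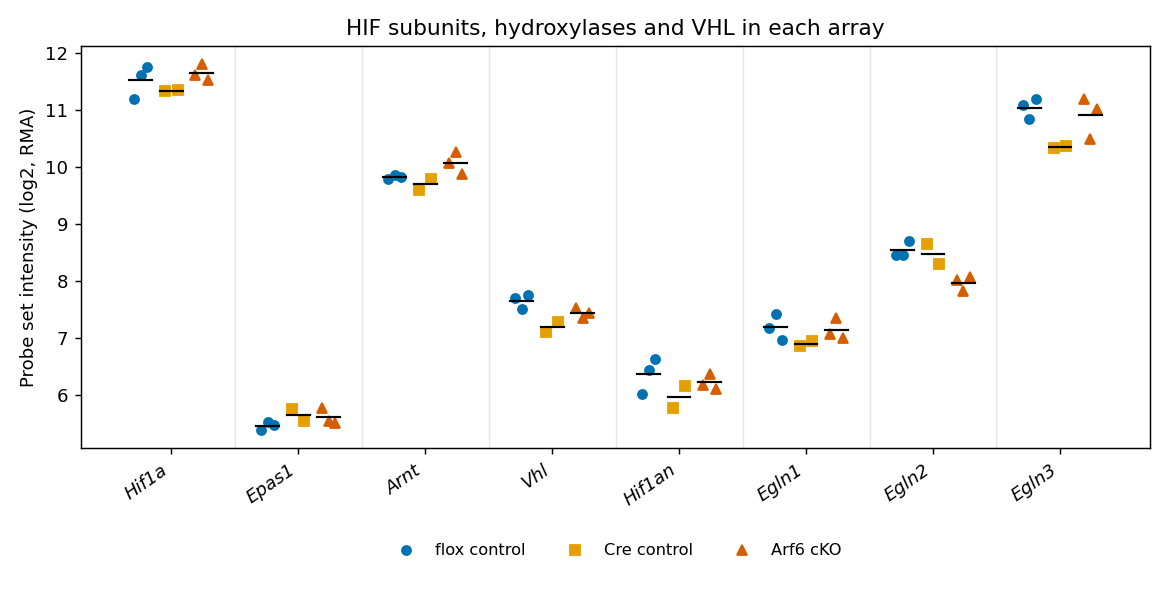
Log2 probe set intensity (vertical axis) of the 8 HIF regulators (horizontal axis) in each array, with circles for the flox control (n = 3), squares for the Cre control (n = 2), triangles for the cKO (n = 3) and a bar for each group mean. Egln2 is lower in the 3 cKO arrays (7.83 to 8.08) than in every control (8.30 to 8.71), Arnt is higher in the cKO, and Egln3 and Vhl are lowest in the Cre control.

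Among secreted and lipid-related targets, the cKO readings rested in large part on replicate 2. Vegfa, the endothelial growth factor, read 9.53, 9.89 and 9.18 in the cKO, 9.24, 9.26 and 9.06 in the flox control arrays and 9.13 and 9.15 in the Cre control arrays. Of the cKO arrays, replicates 1 and 2 lay above every control and replicate 3 lay within the flox range. The difference from both controls was 0.37 (SE 0.15, adjusted p = 0.487 by limma), and 0.19 without cKO replicate 2. Hilpda, which blocks lipid breakdown at lipid droplets, read 8.57, 10.03 and 8.71 in the cKO, 8.08, 8.97 and 8.69 in the flox control arrays and 8.001 and 7.78 in the Cre control arrays. The high cKO pool was replicate 2, and the other cKO pools lay within the flox range. Its difference from both controls was 0.87 (SE 0.32, adjusted p = 0.443), and 0.40 without cKO replicate 2. Against the flox control alone it was 0.52 (SE 0.36), and 0.06 without that pool. Adm, which encodes the vasodilator peptide adrenomedullin, was too dim to test (3.84 to 4.47).

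Among transcriptional and chromatin targets, Kdm3a, Mxi1 and Bhlhe40 read lowest in the Cre control. Kdm3a, a histone H3 demethylase induced by HIF-1, read 9.56, 9.57 and 9.34 in the cKO, 9.35, 9.39 and 9.34 in the flox control arrays and 8.91 and 8.95 in the Cre control arrays. Both Cre arrays lay below the other 6, while the cKO and the flox control overlapped. The cKO differed from both controls by 0.35 (SE 0.10, adjusted p = 0.366 by limma), from the Cre control by 0.56 (SE 0.12, adjusted p = 0.144) and from the flox control by 0.13 (SE 0.11). Mxi1, an antagonist of Myc, read 8.66, 9.85 and 8.63 in the cKO, 8.93, 8.94 and 8.89 in the flox control arrays and 8.07 and 8.35 in the Cre control arrays. The cKO pools spread around the narrow flox range, with replicate 2 above it and the other 2 below. Its difference from both controls was 0.48 (SE 0.25), and 0.08 without cKO replicate 2, and from the flox control 0.13 (SE 0.28), or -0.27 without that pool. A dimmer Mxi1 probe set gave 0.28 (SE 0.20) against both controls and 0.54 (SE 0.25) against the Cre control. For the Cre control minus the flox control it gave -0.54 (SE 0.25). That probe set had no unadjusted p under 0.05 in any comparison. Bhlhe40, a basic helix-loop-helix repressor, read 12.05, 11.77 and 11.63 in the cKO, 11.53, 12.03 and 12.23 in the flox control arrays and 11.26 and 11.47 in the Cre control arrays, with the Cre arrays lowest. The cKO differed by 0.17 (SE 0.17) from both controls, 0.45 (SE 0.21) from the Cre control and -0.11 (SE 0.19) from the flox control. Rora, a nuclear receptor, and the demethylase Kdm4b differed from both controls by 0.08 (SE 0.09) and -0.03 (SE 0.12), and Bhlhe41 was too dim to test.

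Targets in mitochondria and cell stress had their lowest group mean in the Cre control. Fam162a, a mitochondrial protein of hypoxic cell death, read 8.08, 8.05 and 7.73 in the flox control arrays, 7.17 and 6.72 in the Cre control arrays and 7.48, 7.71 and 7.27 in the cKO. The 3 groups did not overlap, with the cKO between the controls. It differed by -0.47 (SE 0.17, adjusted p = 0.531 by limma) from the flox control and by 0.54 (SE 0.19, adjusted p = 0.267) from the Cre control, and the latter was 0.31 without Cre control replicate 2. Bnip3, a receptor for mitophagy, read 7.60, 7.69 and 7.33 in the flox control arrays, 7.24 and 6.70 in the Cre control arrays and 7.401, 7.54 and 7.03 in the cKO, and of the 3 pairs of groups the 2 control groups alone had no overlap. Its cKO difference was 0.07 (SE 0.17) from both controls, 0.36 (SE 0.21) from the Cre control and -0.22 (SE 0.19) from the flox control. Ddit4, an inhibitor of mTORC1, read 7.80, 7.88 and 7.52 in the flox control arrays, 6.90 and 6.91 in the Cre control arrays and 6.71, 7.70 and 6.75 in the cKO. Of the cKO arrays, replicate 2 lay in the flox range and the other 2 below the Cre control. Its difference from the flox control was -0.68 (SE 0.24, adjusted p = 0.506), and -1.005 without cKO replicate 2. Its difference from both controls was -0.27 (SE 0.22), with values from -0.59 without cKO replicate 2 to -0.09 without cKO replicate 1, and -0.08 without the 2 sex-distinct pools. Higd1a, a regulator of mitochondrial respiration, and the mitochondrial adenylate kinase Ak4 differed from both controls by 0.17 (SE 0.16) and 0.04 (SE 0.13).

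Of the remaining targets, Tgm1 and Anxa2 were those with an unadjusted p under 0.05 in a comparison by the brightest probe set. Tgm1, a transglutaminase that crosslinks proteins and is best known from the outer layer of skin, read 10.17, 10.27 and 9.71 in the cKO, 9.75, 9.92 and 9.999 in the flox control arrays and 8.32 and 8.94 in the Cre control arrays. The cKO overlapped the flox control, and both Cre arrays lay below the other 6. Its difference was 0.79 (SE 0.17, adjusted p = 0.283 by limma) against both controls, 1.42 (SE 0.22, adjusted p = 0.0548) against the Cre control and 0.16 (SE 0.19, adjusted p = 0.875) against the flox control. Anxa2, an annexin at membranes, read 11.66, 11.43 and 11.53 in the cKO, 11.86, 11.70 and 11.42 in the flox control arrays and 11.29 and 11.34 in the Cre control arrays. Its cKO difference was 0.05 (SE 0.12) from both controls, 0.23 (SE 0.15) from the Cre control and -0.12 (SE 0.14) from the flox control. P4ha1, a collagen prolyl hydroxylase subunit (0.06, SE 0.11), the metastasis-related gene Ndrg1 (-0.01, SE 0.17) and the oxidase Ero1a of protein folding (-0.18, SE 0.17) had no unadjusted p under 0.05 in any comparison by that probe set. A dimmer Ero1a probe set gave -0.45 for the Cre control minus the flox control (SE 0.14, unadjusted p = 0.0079, adjusted p = 0.165 by limma), where the brighter gave -0.27 (SE 0.21). For the cKO minus the flox control the dimmer gave -0.28 (SE 0.12, unadjusted p = 0.0463, adjusted p = 0.597 by limma), and the brighter -0.32 (SE 0.19). The others were Narf (0.17, SE 0.16), Selenbp1, a selenium-binding protein (0.04, SE 0.14), and the cytokine Mif (0.09, SE 0.18), whose near-identical gene copies make its level uncertain. P4ha2 was too dim to test (5.01 to 5.47).

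**Figure D2:**
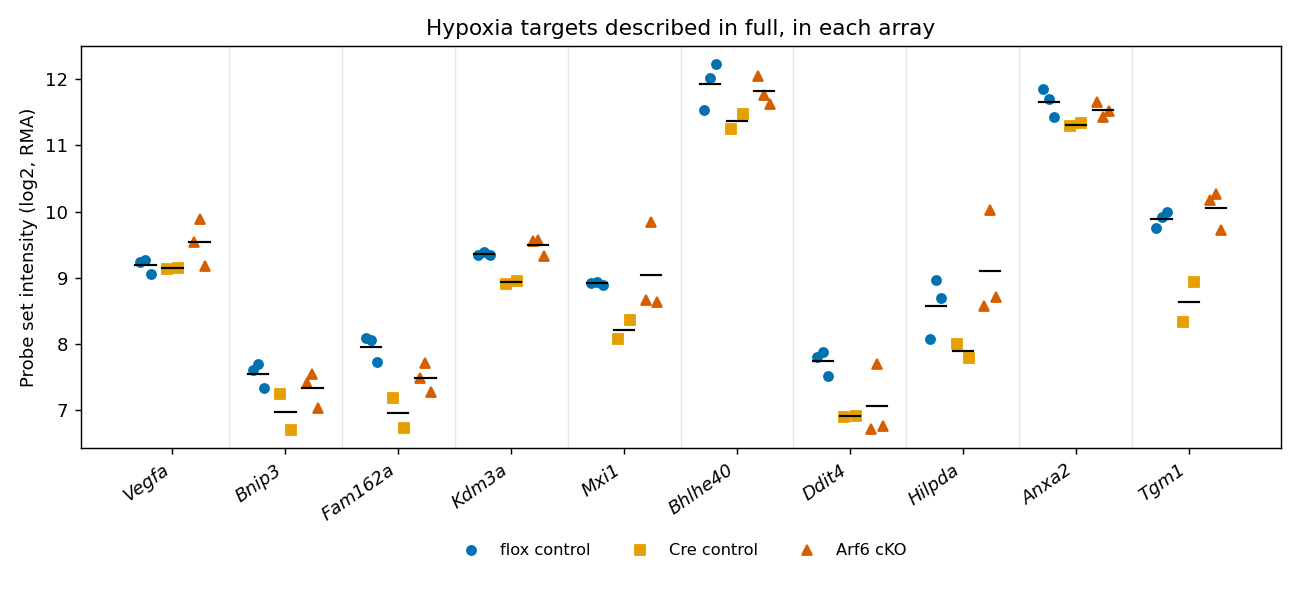
Log2 probe set intensity (vertical axis) of the 10 hypoxia targets described in full (horizontal axis) in each array, with symbols for the groups and a bar for each group mean. The Cre control arrays (squares) lie below the flox control arrays (circles) in every gene shown but Vegfa. The genes shown were picked by an unadjusted p under 0.05 by limma in any comparison, that of the controls among them. Of all 20 targets tested, 9 (45%) showed this separation, against 17.4% of probe sets. The cKO replicate 2 is the high triangle of Hilpda (10.03), Mxi1 (9.85) and Ddit4 (7.70).

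The second question was how the cKO differed from each control group alone. These comparisons share the cKO arrays with each other and a control group with the comparison of the controls, so their values are given side by side. Against the flox control no member passed (0.0429% of all probe sets did) and 3 of 28 (10.7%) had an unadjusted p under 0.05, against 8.26% of probe sets (4.28% higher, 3.98% lower). All 3, Egln2, Fam162a and Ddit4, read lower. The count became 1 without cKO replicate 1. In 12 members the cKO lay above the flox control and in 16 below (median -0.04, against 0.010 over all probe sets, of which 52.4% lay above 0), and 4 members (14.3%) had no overlap, against 12.2% of probe sets (5.93% higher, 6.31% lower). Against the Cre control no member passed (0.0714% of all probe sets did) and 8 of 28 (28.6%) had an unadjusted p under 0.05, against 13.5% of probe sets (7.51% higher, 5.96% lower). Higher were Arnt, Egln3, Fam162a, Kdm3a, Mxi1, Hilpda and Tgm1, and lower was Egln2. In 23 members the cKO lay above the Cre control (median 0.27, against 0.012 over all probe sets, of which 52% lay above 0). In 14 members (50%) there was no overlap, 13 higher and 1 lower, against 34.4% of probe sets (18.5% higher, 16% lower). The count at an unadjusted p under 0.05 was 5 without Cre control replicate 2. Tgm1 passed without flox control replicate 1 (adjusted p = 0.0484), without cKO replicate 3 (0.0224) and with array weights (0.0154).

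The third question was how the control lines differed from each other, since that difference enters the mean of both. Tgm1 fell 2.39-fold in the Cre control relative to the flox control (log2 -1.26, SE 0.22, interval -1.74 to -0.77, adjusted p = 0.0456 by limma, n = 2 against 3), in 2 of 2 arrays, and was the single member past the threshold, which 0.486% of all probe sets passed. Its call was lost in 11 of 18 alternatives, among them the omission of any flox control, any Cre control or cKO replicate 1, with adjusted p from 0.00774 to 0.383 and a difference of -0.95 without Cre control replicate 1. Members that did not pass but had an unadjusted p under 0.05 were Fam162a (-1.01, SE 0.19, adjusted p = 0.057), Ddit4 (-0.83, SE 0.27), Mxi1 (-0.71, SE 0.31), Egln3 (-0.69, SE 0.20), Bnip3 (-0.57, SE 0.21, and -0.30 without Cre control replicate 2), Bhlhe40 (-0.56, SE 0.21), Vhl (-0.46, SE 0.14), Kdm3a (-0.43, SE 0.12) and Anxa2 (-0.35, SE 0.15).

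With Tgm1 these were 10 of 28 members (35.7%), all lower in the Cre control, where 7.86% of all probe sets were lower and 6.85% higher at that level and 14.7% differed in either direction. The count was 6 without flox control replicate 2 or without Cre control replicate 1. In 24 members the Cre control lay below the flox control (median -0.34, against -0.0047 over all probe sets, of which 49.2% lay above 0). In 12 members both Cre arrays lay below all 3 flox arrays, against 17.4% of probe sets, and in 1 member, Epas1, above them, against 15.3%. The Cre control had the lowest group mean in 21 members (75%), against 38.8% of probe sets. The members were chosen with earlier results of these data known, so these shares are descriptions and not tests. In 13 members (46.4%) the order was flox control, cKO, Cre control from high to low, against 19.7% of probe sets. In 8 members (28.6%) it was cKO, flox control, Cre control, against 19.1% of probe sets. Vegfa (-0.05, SE 0.19), Ndrg1 (-0.01, SE 0.21), P4ha1 (0.01, SE 0.14) and Egln2 (-0.07, SE 0.15) showed no difference between the controls beyond their error.

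**Figure D3:**
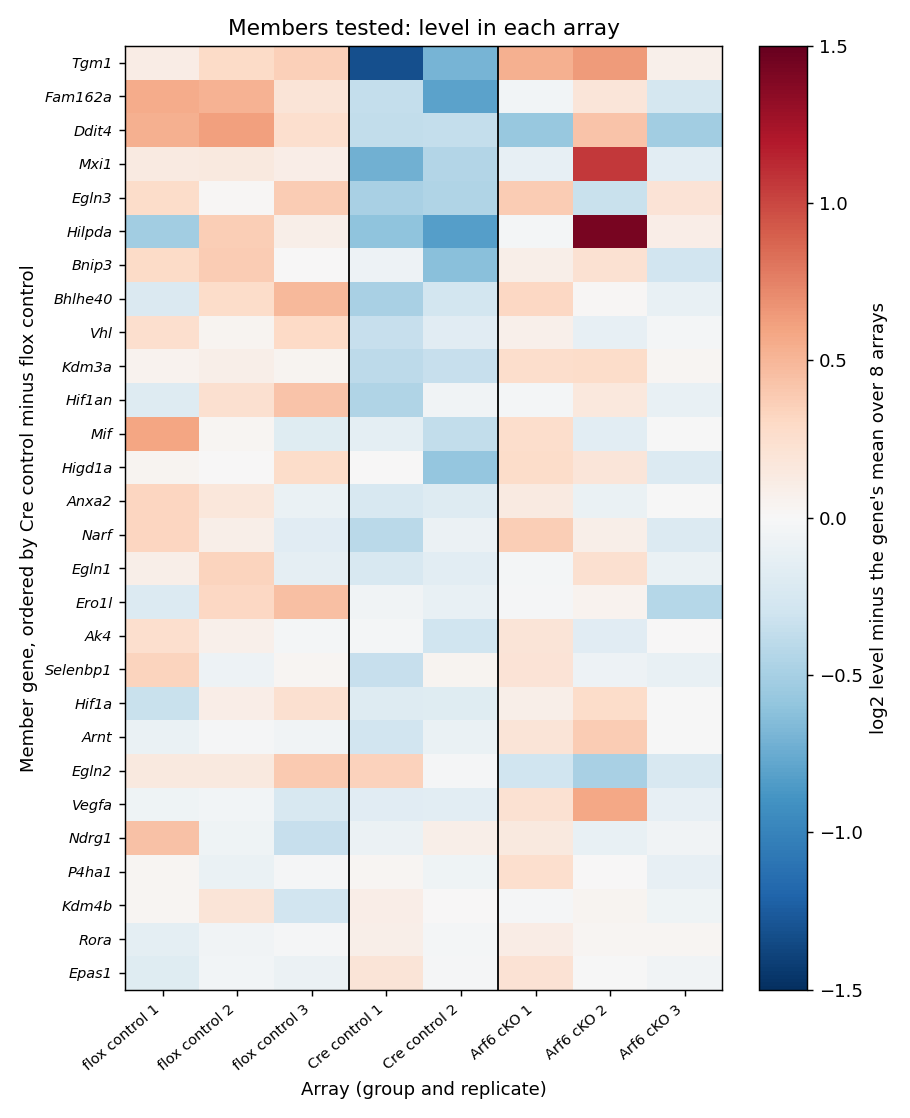
Each row is 1 of the 28 members tested, each column an array, and colour gives the log2 level minus the mean of that gene over the 8 arrays (red higher, blue lower). Rows run from the lowest to the highest difference of the Cre control from the flox control, and blue fills the 2 Cre control columns in most upper rows, from Tgm1 (-1.26) down.

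**Figure D4:**
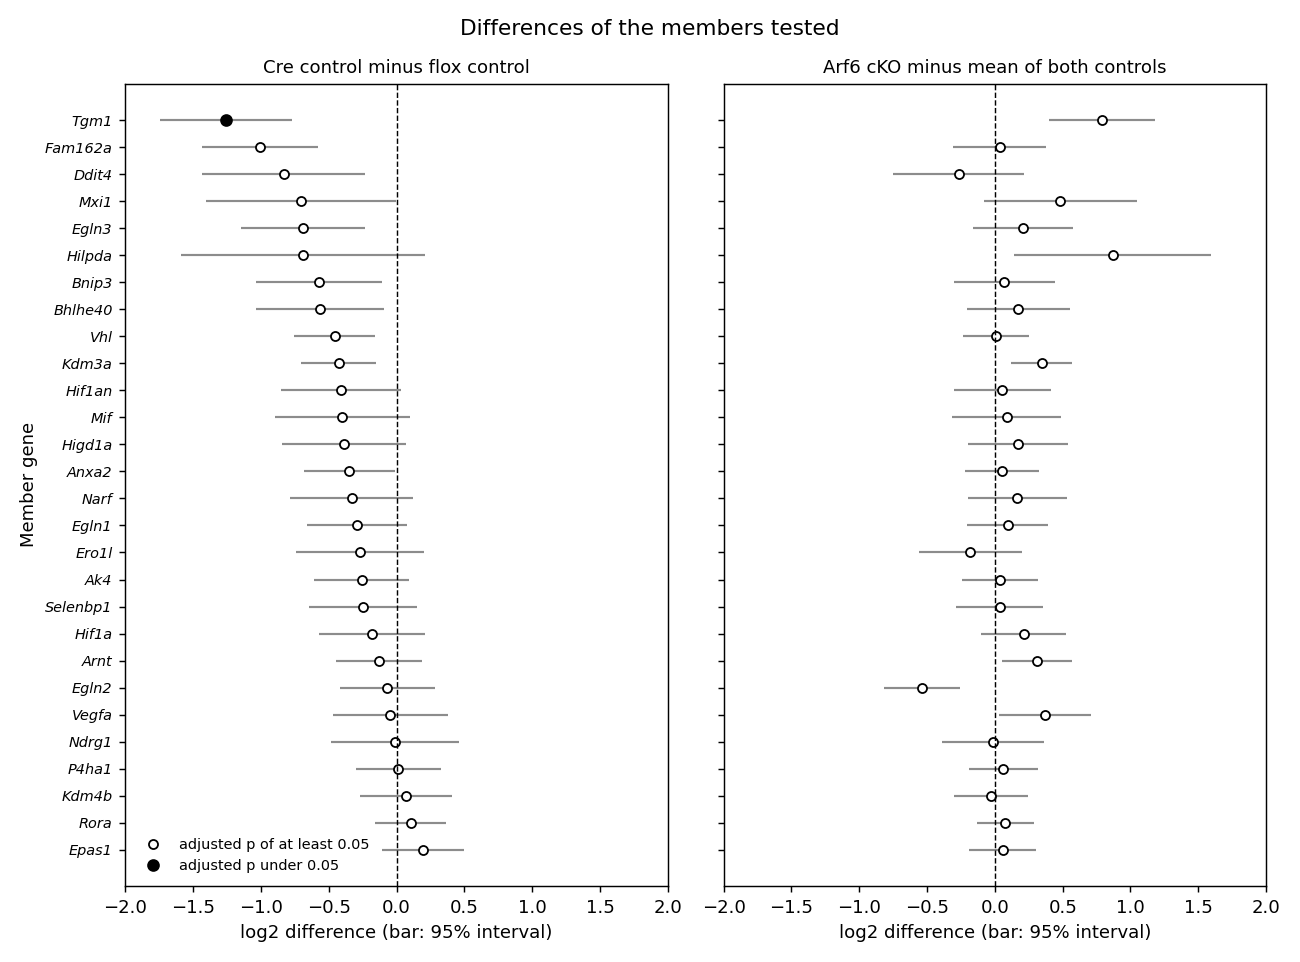
Log2 difference (horizontal axis) of the 28 members tested (vertical axis) with its 95% interval, for the Cre control minus the flox control (left) and the cKO minus the mean of both controls (right). In the left panel 24 points lie below 0, and the filled point of Tgm1 marks the single adjusted p under 0.05. In the right panel 23 lie above 0 and Egln2 lies lowest at -0.54.

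Other genes of the pathway were followed from lists of machinery, glycolytic targets and further targets. Of the 17 measured genes of HIF degradation and cofactors, among them elongins, cullin 2 and the coactivators Ep300 and Crebbp, none had an unadjusted p under 0.05 against both controls (median 0.0027). Those with the smallest p were the elongin Eloc (-0.16, SE 0.11), Cul2 (0.20, SE 0.15) and Arnt2 (-0.11, SE 0.11). For the Cre control minus the flox control, 11 of these 17 lay above 0 and 6 below (median 0.12). There 1 was higher and 2 were lower at an unadjusted p under 0.05, against 6.85% and 7.86% of all probe sets. Of 20 glycolytic HIF targets, 13 lay above 0 against both controls (median 0.11), none passed and 3 (15%) had an unadjusted p under 0.05, against 9.52% of all probe sets. These were the phosphoglucomutase Pgm2 (0.39, SE 0.14, adjusted p = 0.43 by limma), hexokinase Hk2 (-0.48, SE 0.18) and the lactate exporter Slc16a3 (0.44, SE 0.19). In the Cre control 19 of the 20 lay below the flox control and 1 above (median -0.26), where 49.2% of all probe sets lay above. In 13 of them (65%) both Cre arrays lay below all flox arrays, against 17.4% of all probe sets. At an unadjusted p under 0.05, 6 (30%) were lower, against 7.86% of all probe sets, and none passed the threshold. These lists too were chosen with earlier results of these data known.

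Of further HIF targets, 13 of 23 lay above 0 against both controls (median 0.03) and 9 of 23 above 0 between the controls (median -0.07). None passed in any of the 4 comparisons. With the smallest p against both controls, the insulin receptor substrate Irs2 read 8.42, 8.63 and 8.17 in the cKO, 8.18, 8.10 and 8.10 in the flox control arrays and 7.81 and 7.83 in the Cre control arrays (0.43, SE 0.12, adjusted p = 0.343 by limma). The haem-degrading enzyme Hmox1 read 10.89, 11.57 and 10.58 in the cKO, 10.55, 10.32 and 9.64 in the flox control arrays and 10.44 and 10.65 in the Cre control arrays (0.65, SE 0.25). The vasoconstrictor gene Edn1 read 7.98, 7.22 and 9.38 in the cKO, 9.37, 8.73 and 8.91 in the flox control arrays and 9.78 and 9.14 in the Cre control arrays (-1.04, SE 0.41). For Edn1 the low readings were those of cKO replicates 1 and 2.

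Some lists of cell type markers moved with the comparison of the controls and others did not. In bulk RNA, fewer cells of a type and less RNA per cell cannot be told apart. The mean level of all 31 members was 8.02 to 8.08 in the flox control arrays, 7.71 to 7.72 in the Cre control arrays and 7.85 to 8.12 in the cKO. The mean of 12 neutrophil markers was 11.82 to 12.07, 11.57 to 11.62 and 11.67 to 11.94 in the same order, and 11 of the 12 lay below 0 for the Cre control minus the flox control (median -0.24), 5 of them with an unadjusted p under 0.05, where 7.86% of all probe sets were lower at that level. The mean of 11 T and NK cell markers was 5.87 to 6.14, 6.42 to 6.60 and 6.20 to 6.40, and 8 of 9 tested lay above 0 (median 0.67). Of these 9, 7 (77.8%) had an unadjusted p under 0.05, all higher in the Cre control, where 6.85% of all probe sets were, and the smallest adjusted p was 0.0532 by limma (Il7r, 0.88, SE 0.16). The mean of 13 monocyte and macrophage markers was 8.32 to 8.596, 8.68 to 8.72 and 8.41 to 8.58. Of these, 9 of 13 lay above 0 (median 0.21), where 49.2% of all probe sets did. In 3 of the 13 (23.1%) the unadjusted p was under 0.05, all higher in the Cre control, where 6.85% of all probe sets were. Of 9 dendritic cell and class II markers tested, 3 were higher and 1 lower in the Cre control than in the flox control at that level. Over all probe sets 6.85% were higher and 7.86% lower. Of 8 fibroblast and endothelial markers, 1 (12.5%) was higher. No marker tested of B cells (3), of eosinophils, basophils and mast cells (4) or of erythrocytes and platelets (3) reached that level. All 4 of the eosinophil, basophil and mast cell list lay above 0. No marker of these lists passed the threshold. Of the 11 T and NK markers, Cd4 and Klrb1c lay below the median of the whole table in all 8 arrays. The T cell receptor subunit Cd3e (mean 6.31), the NK receptor Ncr1 (6.38), Nkg7 (7.77), the granzyme Gzma (7.73) and Il7r (8.06) lay above it in all 8. Of 5 B cell markers, Cd79a and Ms4a1 lay below it in all 8 arrays and Ighm (9.13) above it. The part of these cells in the lower readings of the members in the Cre control was not tested.

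**Figure D5:**
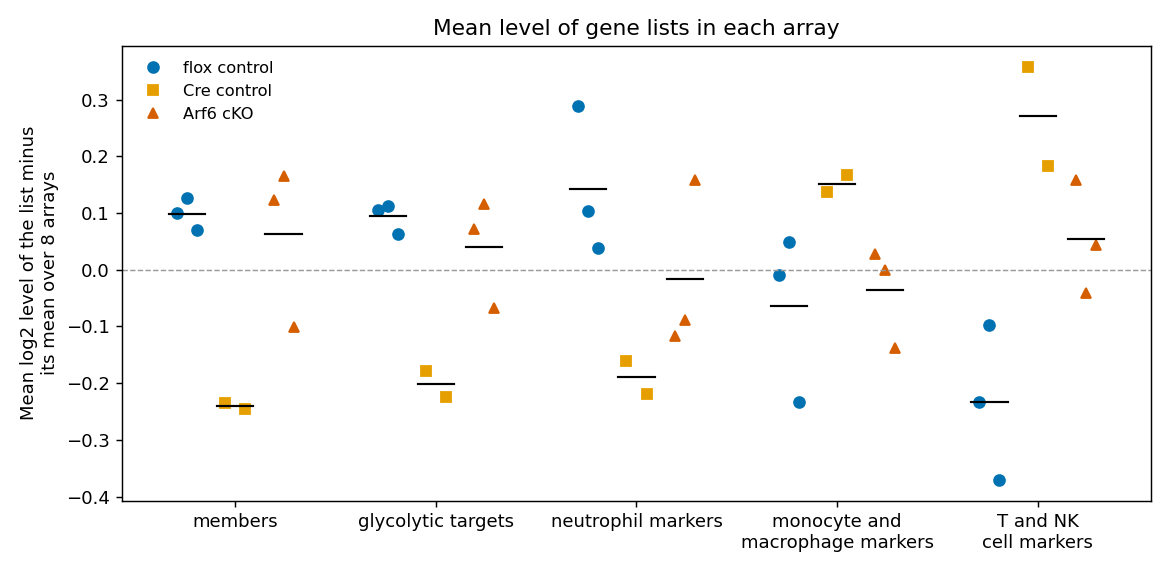
Mean log2 level of 5 gene lists in each array, minus the mean of that list over the 8 arrays (vertical axis), with a bar for each group mean. The Cre control squares lie lowest for the members, the glycolytic targets and the neutrophil markers, and highest for the monocyte and macrophage markers and the T and NK cell markers.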

How the data were processed

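Each deposited value is a log2 intensity of a probe set. Per the series' design text, the authors subtracted background and normalized the arrays by Robust Multiarray Analysis in Expression Console, with no version named. The values were used as they stand. The labels and the design text name different kits for extraction and labelling of RNA. Input was 100 ng of RNA with an integrity number of at least 7, from cells of which 98% were Ly6G positive, per the labels.

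Of 34472 probe sets, 23521 carried 1 gene symbol, 1814 several and 9137 none. Those with 1 symbol that exceeded the median of the whole table in at least 2 arrays were tested (14002 probe sets, 13296 genes). Symbols were updated by gene identifier with RefSeq (GRCm38.p6). One limma (3.58.1, R 4.3.3) fit of all 8 arrays in 3 groups gave 4 comparisons, with 5 residual and 4.69 prior degrees of freedom for the moderated spread, two-sided tests and Benjamini-Hochberg adjustment over all probe sets, and was tested on simulated data. SE is that of the fit. The members and lists were chosen with earlier results of these data known. Members with an unadjusted p under 0.05 in any comparison, Hif1a and Vegfa are described in full, with every array and a choice of differences. In each pathway list 3 genes are named by smallest p against both controls. P-values measure the spread between pools. The number of arrays limits the precision. Alternatives covered filters, scaling, variance models, array weights, probe set choice and left-out arrays.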

Additional observations from a re-analysis of the deposited data

How the results depend on the processing

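Counts over the 28 members tested, and single values of the 15 members described in full, were recomputed in the 4 comparisons under filters, scalings, variance models, probe set choices and left-out arrays. No paired analysis was possible because the numbers in the titles are unique to each sample and no replicate number is shared between groups. Of the values of these 15 members under an alternative, 1018 kept their direction and side of the threshold, 24 reversed, 11 lost a call and 12 gained one. Single values of the other 13 members were not recomputed. With 1 array left out, ranges of log2 differences that crossed 0 against both controls were Vhl -0.041 to 0.054, Bnip3 -0.067 to 0.22, Fam162a -0.077 to 0.15, Anxa2 -0.0067 to 0.11. With 1 array left out, ranges of log2 differences that crossed 0 against the flox control were Hif1a -0.044 to 0.24, Egln3 -0.29 to 0.069, Mxi1 -0.27 to 0.34, Bhlhe40 -0.31 to 0.041. With 1 array left out, ranges of log2 differences that crossed 0 against the Cre control were Ddit4 -0.17 to 0.32. With 1 array left out, ranges of log2 differences that crossed 0 for the Cre control minus the flox control were Egln2 -0.25 to 0.11. Other reversals were Vhl -0.021 with quantile scaling and -0.028 without the 2 pools that stood apart in sex-linked transcripts, Fam162a -0.013 with array weights and Bhlhe40 -0.045 without those pools (against both controls). Against the flox control they were Hif1a -0.028 without those pools, and Egln3 0.054 and Mxi1 -0.010 with array weights. The cause was not tested.

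Without the 2 pools that stood apart in sex-linked transcripts, members at an unadjusted p under 0.05 were 4, 3, 6 and 10. The order is both controls, flox control, Cre control, between controls. Members above 0 were 17, 10, 21 and 5 in that order. The number of members past the threshold was 0 against both controls and 0 against the flox control, with 6 and 3 by the unadjusted rule and 2 and 4 by no overlap. Against the Cre control it was 0, with 2 by array weights, 8 by the unadjusted rule, 14 by no overlap and 0 to 1 with an array left out. Between the controls it was 1, with 5 by array weights, 10 by the unadjusted rule, 13 by no overlap, 0 to 4 with an array left out, and 0 with no filter, a filter in all 8 arrays, a variance trend, the mean of probe sets or without the 2 pools. With 1 array left out, members at an unadjusted p under 0.05 were 4 to 7, 1 to 3, 5 to 12 and 6 to 12, and members above 0 were 16 to 24, 10 to 15, 21 to 26 and 3 to 5, in the order both controls, flox control, Cre control, between controls.

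Over all probe sets, 1 passed against both controls, with 13 by array weights, 0 by the mean of probe sets or without the 2 pools, and 0 to 31 with an array left out. Against the flox control 6 passed, with 12 by array weights, 0 with the compared groups alone, the mean of probe sets or without the 2 pools, and 0 to 11 with an array left out. Against the Cre control 10 passed, with 145 by array weights, 5 with no filter or the compared groups alone, 3 with a filter in all 8 arrays, 4 by the mean of probe sets or without the 2 pools, and 0 to 67 with an array left out. Between the controls 68 passed, with 819 by array weights, 131 with the compared groups alone, 37 by the mean of probe sets, 24 without the 2 pools and 0 to 235 with an array left out.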
